A study of Mus musculus with 18 samples.

Results

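The genes described here are the FoxO transcription factors Foxo1, Foxo3 and Foxo4, the muscle ubiquitin ligases Fbxo32 (atrogin-1) and Trim63 (MuRF1), and the autophagy and mitophagy genes Pink1, Bnip3, Bnip3l, Gabarapl1 and Map1lc3b. They were taken as the probe sets of both chips whose only gene symbol in the platform annotation is 1 of these 10. That gave 22 of the 45137 probe sets that are not controls, and 18 of the 22 passed the filter on low signals. All 3 probe sets of Bnip3l also carry the symbol of a pseudogene, Bnip3l-ps, so no value is given for Bnip3l, and 9 genes remain. Foxo3 has 1 further probe set that is shared with another symbol and was not used.

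Hearts of male mice were studied, and all of them bore the Tet-myrAkt1 transgene (membrane-bound, active Akt1 under a tetracycline-controlled promoter) and αMHC-tTA, whose promoter drives expression in heart muscle cells. There were 3 groups of 3 hearts. The Akt-on hearts were taken 6 weeks after AAC, the operation that puts a pressure load on the heart, with Akt switched on for 2 weeks by their descriptions and for 3 weeks by their titles, at a labelled age of 12 weeks. The 4-week hearts were taken 4 weeks after AAC with Akt off, also at 12 weeks of age. The hearts before AAC were taken at 8 weeks of age. There was no group 6 weeks after AAC with Akt off and none of later age without AAC. The effect of Akt therefore cannot be told apart from that of 2 further weeks of load, nor that of AAC from age. With equal age labels at 4 and 6 weeks after AAC, either age at AAC differed or a label is wrong. Which of these holds is not known. In the descriptions, replicate 3 of the 4-week group bears the same number as replicate 1; its signals differed from those of that replicate (r = 0.961 on chip 430A) by about as much as those of other replicates (0.950 to 0.975). Each sample is called a heart here, and whether RNA of several mice was pooled is not given.

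FoxO factors switch on genes for protein breakdown and autophagy when insulin and growth factor signalling is low. Akt phosphorylates FoxO proteins, which then bind 14-3-3 proteins and leave the nucleus, so FoxO activity is set largely by where the protein lies, which an array does not measure. In striated muscle Fbxo32 and Trim63 mark proteins for the proteasome. Pink1 marks damaged mitochondria, Bnip3 and Bnip3l are receptors on their outer membrane, and the ubiquitin-like proteins Gabarapl1 and Map1lc3b (LC3B) sit in the autophagosome membrane and bind the cargo.

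The transgene check came from Akt1. Probe set 1425711_a_at gave 2614, 3762 and 6535 signal units in the Akt-on hearts, against 571, 821 and 917 in the 4-week hearts, and 708, 383 and 496 before AAC. The Akt-on hearts were all above the other 6 (log2 change from 4 weeks 2.36 ± 0.31, adjusted p = 0.00312, limma). The other Akt1 probe sets did not pass. Several measures moved with the groups. The 3' over 5' ratio of the β-actin control on chip 430A was 1.04 to 1.22 with Akt on, 1.14 to 1.21 at 4 weeks and 1.49 to 2.04 before AAC, so the hearts before AAC stood apart from both later groups on that chip. On chip 430B it was 1.11 to 1.26, 1.16 to 1.51 and 1.45 to 1.86 in the same order. There the 4-week hearts overlapped those before AAC. Of 17 fibroblast marker probe sets, 6 rose in the Akt-on hearts over the 4-week hearts and 6 over those before AAC; the mean log2 signal of the 13 on chip 430A was 10.79 to 11.44 with Akt on, 9.85 to 10.68 at 4 weeks and 10.27 to 10.42 before AAC. Of 16 endothelial probe sets, 10 fell in the Akt-on hearts against those before AAC, with a mean log2 signal of 9.91 to 9.99 against 10.52 to 10.58, and with 10.10 to 10.28 at 4 weeks. The 20 heart muscle probe sets gave no call between Akt-on and 4-week hearts, 1 rose and 6 fell between Akt-on hearts and those before AAC, and 1 rose and 2 fell between 4-week hearts and those before AAC (Myh6, Tnni3 and Mb were the genes called). Of the skeletal muscle markers 2 of 11 genes passed the filter. Their mean log2 signal separated the groups, at 11.12 to 11.27 with Akt on, 10.32 to 10.62 at 4 weeks and 9.29 to 10.29 before AAC, and Myl1 rose against hearts before AAC in both later groups. Of the 4 brown adipocyte marker genes 2 passed the filter, Cidea and Cox8b, while Ucp1 and Elovl3 did not, so their calls do not show brown fat in the samples. Of these 2 probe sets, 1 (Cidea) rose between Akt-on and 4-week hearts, Cidea and Cox8b were called between Akt-on hearts and those before AAC (1 rise, 1 fall), and Cox8b fell between 4-week hearts and those before AAC. Atrial markers differed within every group (8.13 to 11.88 with Akt on, 7.35 to 11.29 at 4 weeks, 8.17 to 11.89 before AAC), and no atrial probe set was called. In whole hearts, fewer cells of a type cannot be told apart from less RNA in each cell.

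A probe set is said to have risen or fallen where its Benjamini-Hochberg adjusted p over all 27083 probe sets was under 0.05 (limma). Values are given as signal, the linear MAS5 intensity, and changes as log2(signal + 32) with their standard error, n = 3 hearts a group. In the Akt-on hearts against the 4-week hearts, 4 of the 18 member probe sets fell and 0 rose, whereas 1.46% of all probe sets fell and 1.08% rose. Those 4 belong to Fbxo32, Foxo4 and Gabarapl1. Against the hearts before AAC, 7 fell and 0 rose, in 5 genes (Fbxo32, Foxo3, Foxo4, Gabarapl1 and Pink1), where 6.51% of all probe sets fell and 6.86% rose. Between the 4-week hearts and those before AAC 1 member probe set rose (Map1lc3b) and 0 fell, where 2.75% of all rose and 1.68% fell. The median change over the 18 was -0.42, -0.49 and -0.04 in these comparisons, while over all probe sets it was 0.02, -0.01 and -0.04. Each comparison shares a group with the others, so their calls are not independent.

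**Figure D1:**
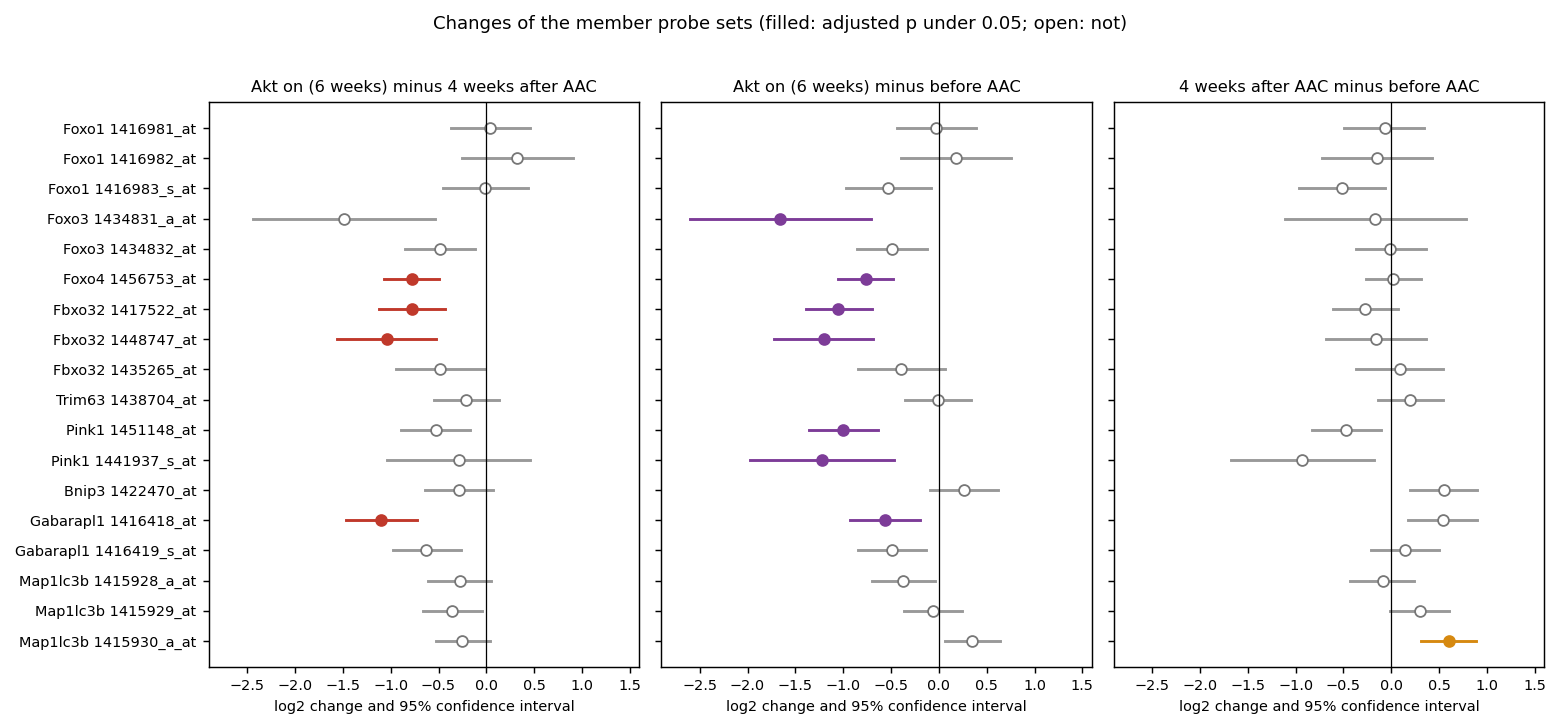
Log2 changes of the 18 member probe sets past the filter, with 95% confidence intervals, in Akt-on against 4-week hearts (left), Akt-on hearts against those before AAC (middle) and 4-week hearts against those before AAC (right). Filled points have an adjusted p under 0.05: 4 on the left and 7 in the middle, all below 0, and 1 on the right, above 0.

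The hearts of the groups did not overlap for 9 of the 18 probe sets between Akt-on and 4-week hearts, which 20.6% of all probe sets also showed. This held for 10 of 18 between Akt-on hearts and those before AAC, with 32.1% of all probe sets, and for 7 of 18 between 4-week hearts and those before AAC, with 29.3%. At an unadjusted p under 0.05, 10, 12 and 6 of the 18 passed in the same order of comparisons, where 17%, 28% and 21.7% of all probe sets did.

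Among the FoxO factors themselves, Foxo4 fell in the Akt-on hearts, Foxo3 had its lowest signals there, and no Foxo1 probe set passed in any comparison. The Foxo4 gene lies on chromosome X and its probe set 1456753_at on chip 430B gave 440.2, 448 and 462 in the Akt-on hearts, against 887, 767 and 746 in the 4-week hearts. Before AAC it gave 787, 848 and 726. The Akt-on hearts lay close together and below all 6 others, and the 4-week hearts overlapped those before AAC. Foxo4 was 1.72-fold lower with Akt on than at 4 weeks (log2 change -0.78 ± 0.13, adjusted p = 0.00957) and 1.7-fold lower than before AAC (-0.76 ± 0.13, adjusted p = 0.00385). Its change in 4-week hearts against those before AAC was 0.02 (95% interval -0.26 to 0.31, adjusted p = 0.949). Both calls of Foxo4 passed when any 1 of the 9 hearts was left out. The other Foxo4 probe set, 1422149_at on chip 430A, was below the filter at 89.2 to 138, 91.0 to 123 and 127.7 to 152 in Akt-on hearts, 4-week hearts and hearts before AAC, and its groups overlapped between Akt on and the other groups.

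Foxo3, the factor most studied in muscle atrophy, was read by 2 probe sets past the filter. Probe set 1434831_a_at gave 158, 512 and 807 in the Akt-on hearts, against 1760.3, 784 and 1284 in the 4-week hearts. The hearts before AAC gave 1179, 1361 and 1579.9. The Akt-on hearts were spread over a wide range, all were below the hearts before AAC, and the highest of them was above the lowest 4-week heart. It was 3.16-fold lower with Akt on than before AAC (-1.66 ± 0.43, adjusted p = 0.0268), while the change from 4 weeks of -1.49 ± 0.43 did not pass (adjusted p = 0.0987). The call against hearts before AAC was lost without replicate 1, 2 or 3 of those hearts (adjusted p = 0.0541, 0.0727 and 0.0939) and without Akt-on replicate 2 (0.0512), and without Akt-on replicate 1 the change was -1.05. It was also lost without the filter on low signals (0.0555) and with a robust variance estimate (0.0669). Without Akt-on replicate 3 the change from 4 weeks passed (-1.95, adjusted p = 0.0411). Probe set 1434832_at gave 512, 352 and 465 in the Akt-on hearts, against 659.9, 548 and 679 in the 4-week hearts and 643, 713 and 541 before AAC. All Akt-on hearts were below all others, with changes of -0.48 ± 0.17 from 4 weeks (adjusted p = 0.164) and -0.49 ± 0.17 from before AAC (adjusted p = 0.0766), which did not pass. In the third comparison, 4-week hearts against those before AAC, the 2 probe sets changed by -0.17 (95% interval -1.11 to 0.78) and -0.01 (-0.37 to 0.36). The third Foxo3 probe set, 1450236_at, had 8.1 to 25.3 signal units in the 9 hearts and was below the filter.

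Foxo1, the member that also governs insulin-responsive metabolism, had 3 probe sets past the filter. Probe set 1416981_at gave 504, 414 and 498 in Akt-on hearts, 494, 361 and 529.9 in 4-week hearts and 623, 399.9 and 443 before AAC, and 1416982_at gave 538, 330.4 and 743, 342, 480.0 and 394 and 484, 563 and 328 in the same groups. For both, the groups overlapped in every comparison. Between Akt-on and 4-week hearts their changes were 0.04 (95% interval -0.37 to 0.46) and 0.32 (-0.25 to 0.90), so a fall of the size measured for Foxo4 lies outside both intervals, while a rise of that size lies within the second. Probe set 1416983_s_at, whose suffix marks probes that can match more than 1 transcript, gave 459, 244 and 341 in Akt-on hearts, 357, 305 and 361 in 4-week hearts and 418, 524 and 573 before AAC. Its 4-week hearts were all below those before AAC (-0.52 ± 0.20, adjusted p = 0.164), which did not pass, and its change between Akt-on and 4-week hearts was -0.01 (-0.45 to 0.43). Without Akt-on replicate 1, its change between Akt-on hearts and those before AAC passed (-0.73, adjusted p = 0.0251, against -0.53 and 0.112 with all hearts). The fourth probe set, 1456529_at, had 8.5 to 19.3 signal units and was below the filter.

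**Figure D2:**
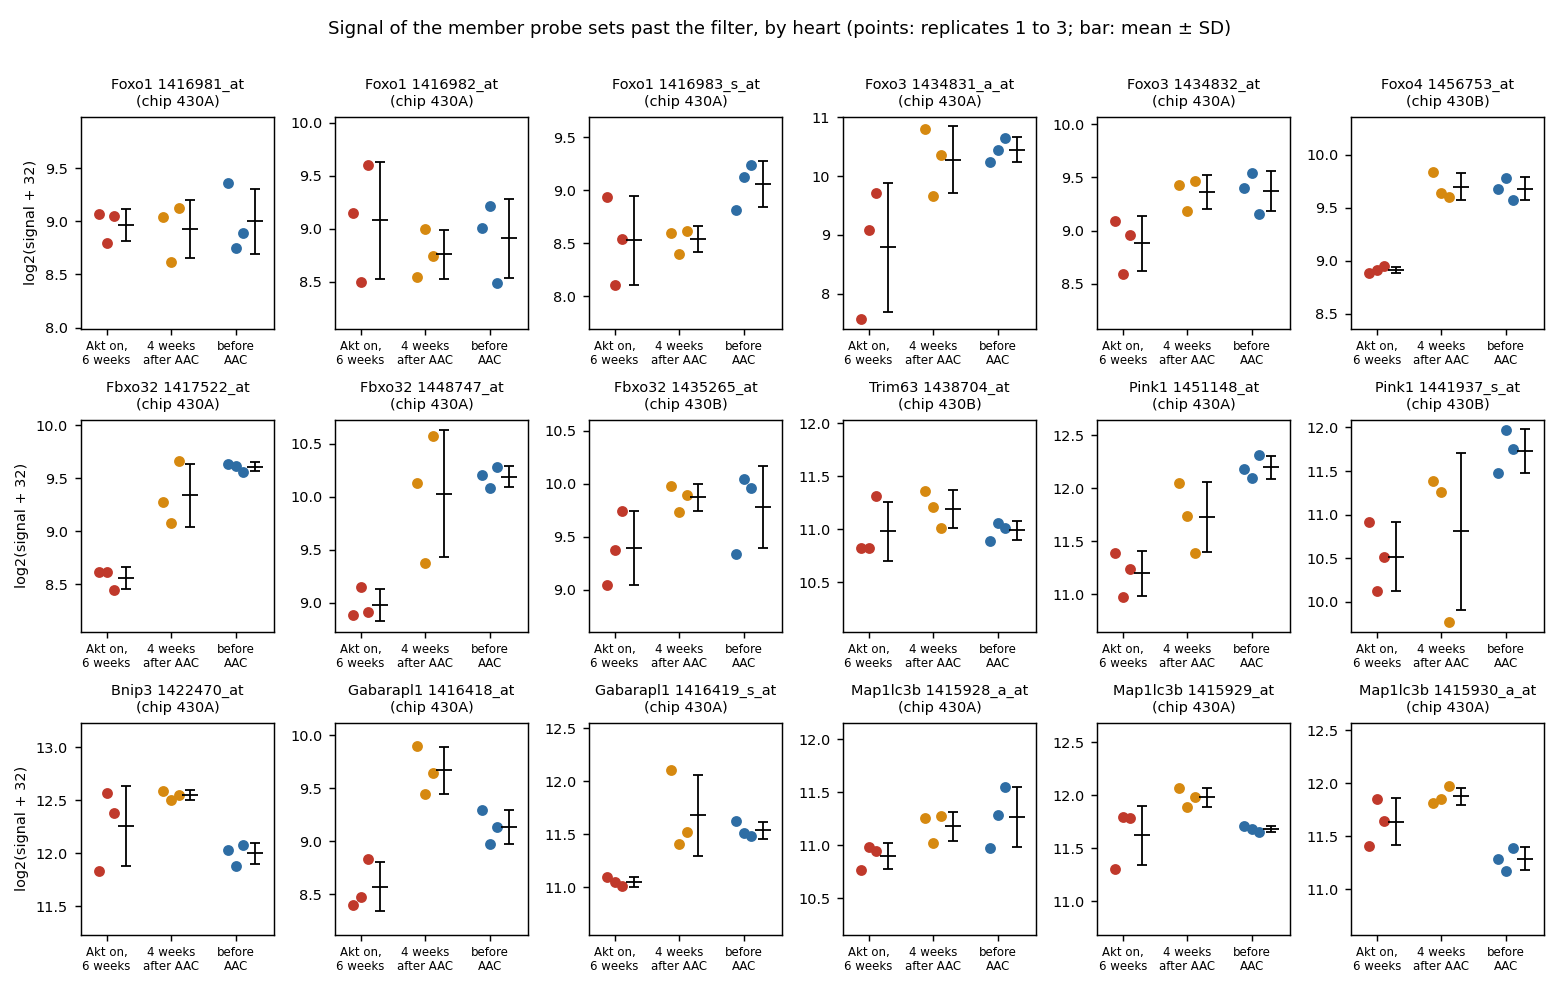
Log2(signal + 32) of each of the 18 member probe sets in each heart, in Akt-on hearts (left), 4-week hearts (middle) and hearts before AAC (right); points are replicates 1 to 3 and bars the mean ± SD. The Akt-on hearts of Foxo4, of Fbxo32 1417522_at and 1448747_at, of both Gabarapl1 probe sets and of Foxo3 1434832_at lie below all other hearts, while those of Trim63 overlap both other groups. The Akt-on hearts of Pink1 1451148_at are also below all others, the highest (2648 signal units) only just under the lowest 4-week heart (2660.0).

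Of the muscle ligases, Fbxo32 fell in the Akt-on hearts on both of its chip 430A probe sets, and Trim63 passed in no comparison. Fbxo32 is the substrate-binding F-box subunit of an SCF ubiquitin ligase. Probe set 1417522_at gave 361, 361 and 317 in the Akt-on hearts, against 588, 508 and 778 in the 4-week hearts. Its signals before AAC were 769, 755 and 724. It was 1.72-fold lower with Akt on than at 4 weeks (-0.78 ± 0.16, adjusted p = 0.0268) and 2.07-fold lower than before AAC (-1.05 ± 0.16, adjusted p = 0.00237). Probe set 1448747_at gave 442, 538 and 448 in the Akt-on hearts, against 1085, 636 and 1486 in the 4-week hearts and 1149.8, 1048 and 1208 before AAC. It was 2.06-fold lower with Akt on than at 4 weeks (-1.04 ± 0.24, adjusted p = 0.0423) and 2.3-fold lower than before AAC (-1.20 ± 0.24, adjusted p = 0.00773). For both, every Akt-on heart was below every other heart, and the 4-week hearts overlapped those before AAC (changes -0.27, 95% interval -0.61 to 0.07, and -0.16, -0.68 to 0.36).

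The 4-week hearts were the more spread for Fbxo32, with replicate 2 lowest and replicate 3 highest on both of these probe sets. Both falls against hearts before AAC passed when any 1 heart was left out. Those against the 4-week hearts did not: 1417522_at failed without 4-week replicate 1 (-0.81, adjusted p = 0.0516) or 3 (-0.62, 0.0928), Akt-on replicate 2 (0.0646) or 3 (0.0744), or replicate 3 before AAC (0.0508). Probe set 1448747_at passed only without 4-week replicate 2 (-1.36, adjusted p = 0.00596) and otherwise gave changes of -1.13 to -0.77 with adjusted p up to 0.124. The third Fbxo32 probe set, 1435265_at on chip 430B, gave 496, 629.8 and 826 in Akt-on hearts, 981, 816 and 919.6 in 4-week hearts and 615, 1022 and 967 before AAC. Its groups overlapped and it did not pass (-0.48 ± 0.21, adjusted p = 0.264, from 4 weeks, and -0.40 ± 0.21, 0.246, from before AAC), so the probe sets of Fbxo32 disagree in call though not in sign in those comparisons.

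Trim63, a RING-type ubiquitin ligase of the sarcomere, was read by 1 probe set, 1438704_at on chip 430B. It gave 1782, 1770.5 and 2502 in the Akt-on hearts, against 2594, 2333 and 2025 in the 4-week hearts. Before AAC it gave 1870.5, 2104 and 2035. The groups overlapped in every comparison, and the changes were -0.21 for Akt on against 4 weeks (95% interval -0.55 to 0.13, adjusted p = 0.553), -0.01 for Akt on against before AAC (-0.35 to 0.34, 0.984) and 0.20 for 4 weeks against before AAC (-0.14 to 0.54, 0.499). Both Akt-on intervals leave out the changes of both chip 430A probe sets of Fbxo32. The -0.48 from 4 weeks of Fbxo32 1435265_at, on the same chip as Trim63, lies within the interval, and its -0.40 from before AAC lies just below it. Whether the 2 genes differ from each other was not tested. The promoter window of Trim63 is shown because, of the 7 members that the RefSeq promoter table lists (Foxo1, Foxo3, Trim63, Pink1, Bnip3, Gabarapl1 and Map1lc3b), it was the 1 that held either FoxO-type motif searched. The motifs were GTAAACA and CAAAACA, read on both strands of the 250 bases before and 50 after the annotated start. GTAAACA was in 3.65% and CAAAACA in 6.28% of all 32851 windows of the table. The window lies at chr4:134314870-134315169 (GRCm38.p6, plus strand) and has a GC content of 57%. Its match, in capitals, is the reverse complement of GTAAACA and begins 194 bases before the start.
Trim63 promoter: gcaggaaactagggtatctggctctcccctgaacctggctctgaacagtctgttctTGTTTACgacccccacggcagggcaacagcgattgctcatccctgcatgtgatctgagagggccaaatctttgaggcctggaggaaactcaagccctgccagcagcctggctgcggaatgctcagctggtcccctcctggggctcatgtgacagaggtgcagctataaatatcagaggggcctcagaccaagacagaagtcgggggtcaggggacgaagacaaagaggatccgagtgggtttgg
A match is a description of the letters and not a binding site.

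Of the mitophagy genes, Pink1 fell in the Akt-on hearts against those before AAC on both of its probe sets, and Bnip3 passed in no comparison. Pink1 encodes a kinase that builds up on damaged mitochondria and recruits the ligase Parkin. Probe set 1451148_at on chip 430A gave 2648, 1982 and 2384 in the Akt-on hearts, against 4198, 3396 and 2660.0 in the 4-week hearts. The hearts before AAC gave 4598, 4370.0 and 5064. The 3 groups did not overlap: every Akt-on heart was below every 4-week heart, and every 4-week heart was below every heart before AAC. It was 2-fold lower with Akt on than before AAC (-1.00 ± 0.17, adjusted p = 0.00358), a call kept when any 1 heart was left out. The changes of -0.53 ± 0.17 between Akt-on and 4-week hearts (adjusted p = 0.124) and -0.47 ± 0.17 between 4-week hearts and those before AAC (0.124) did not pass. Probe set 1441937_s_at on chip 430B, which can match more than 1 transcript, gave 1890.2, 1092 and 1427 in the Akt-on hearts, against 2641, 2423 and 843 in the 4-week hearts and 2822, 3992 and 3414 before AAC. It was 2.32-fold lower with Akt on than before AAC (-1.22 ± 0.35, adjusted p = 0.0357), and its lowest heart of all was 4-week replicate 3. That call was lost without replicate 1, 2 or 3 before AAC (adjusted p = 0.0576, 0.116 and 0.0966) and without Akt-on replicate 2 or 3 (0.126 and 0.0908). The Pink1 promoter window is shown as that of the member with the lowest adjusted p against hearts before AAC among those in the table; it lies at chr4:138326247-138326546 (GRCm38.p6, minus strand), has a GC content of 58% and holds neither motif.
Pink1 promoter: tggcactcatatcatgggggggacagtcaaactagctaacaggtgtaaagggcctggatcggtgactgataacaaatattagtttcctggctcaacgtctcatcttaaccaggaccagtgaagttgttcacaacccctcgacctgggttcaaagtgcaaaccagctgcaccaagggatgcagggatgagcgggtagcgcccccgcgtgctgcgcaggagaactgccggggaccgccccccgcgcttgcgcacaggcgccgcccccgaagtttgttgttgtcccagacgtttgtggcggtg

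Bnip3, a mitophagy receptor and BH3-type protein that hypoxia induces, gave 3616, 6037 and 5285 on probe set 1422470_at in the Akt-on hearts, against 6128, 5742 and 5978 in the 4-week hearts. Its signals before AAC were 4139, 3742 and 4303. All 4-week hearts were above all hearts before AAC, and the Akt-on hearts ranged from below the 3 hearts before AAC to near the top of the 4-week group. The change of 0.55 ± 0.16 between 4-week hearts and those before AAC did not pass (adjusted p = 0.0759), nor did -0.29 ± 0.16 between Akt-on and 4-week hearts (0.405) or 0.26 ± 0.16 between Akt-on hearts and those before AAC (0.326). Without Akt-on replicate 1, the lowest heart of all, the change between Akt-on hearts and those before AAC was 0.48 and passed (adjusted p = 0.02). The change between 4-week hearts and those before AAC stayed at 0.55, as that heart is in neither group, and passed (0.0149). It also passed with only those 2 groups in the fit (0.0173) and with adjustment within each chip (0.0478), and under no other alternative.

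Gabarapl1, an autophagosome protein of the GABARAP branch, had the lowest p of all members between Akt-on and 4-week hearts. Probe set 1416418_at gave 306, 322 and 424 in the Akt-on hearts, against 925, 669.7 and 768 in the 4-week hearts. Before AAC it gave 596, 468 and 529. The groups did not overlap, with the Akt-on hearts lowest, the hearts before AAC between and the 4-week hearts highest. It was 2.14-fold lower with Akt on than at 4 weeks (-1.10 ± 0.17, adjusted p = 0.00644), a call kept when any 1 heart was left out. It was 1.48-fold lower with Akt on than before AAC (-0.56 ± 0.17, adjusted p = 0.0463), near the threshold: the call was kept only without 4-week replicate 1 (0.0428) or Akt-on replicate 3 (0.0361), and leaving out each of the other 7 hearts gave an adjusted p of 0.0507 to 0.143. The change of 0.54 ± 0.17 between 4-week hearts and those before AAC did not pass (adjusted p = 0.0924). Probe set 1416419_s_at, which can match more than 1 transcript, gave 2164, 2092 and 2025 in the Akt-on hearts, against 4391, 2696 and 2907 in the 4-week hearts and 3129, 2891 and 2820.4 before AAC. Its Akt-on hearts were also below all others, and its changes did not pass (-0.63 ± 0.16, adjusted p = 0.0673, from 4 weeks, and -0.49 ± 0.16, 0.0716, from before AAC). The Gabarapl1 promoter window, shown because this gene's call between Akt-on and 4-week hearts has the lowest p, lies at chr6:129532942-129533241 (GRCm38.p6, plus strand), has a GC content of 46.3% and holds neither motif.
Gabarapl1 promoter: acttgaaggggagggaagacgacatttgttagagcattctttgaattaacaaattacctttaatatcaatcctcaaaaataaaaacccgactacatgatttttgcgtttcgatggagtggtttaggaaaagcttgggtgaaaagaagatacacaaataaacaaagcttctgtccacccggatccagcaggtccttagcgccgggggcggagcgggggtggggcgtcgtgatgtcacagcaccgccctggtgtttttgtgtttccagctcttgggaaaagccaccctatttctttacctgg

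Map1lc3b, the LC3B protein used as a marker of autophagosomes, rose at 4 weeks on 1 of its 3 probe sets past the filter. Probe set 1415930_a_at gave 3585, 3654 and 4004 in the 4-week hearts, against 2475, 2277 and 2657 before AAC (0.60 ± 0.13, adjusted p = 0.0303). All 4-week hearts were above all hearts before AAC. In the Akt-on hearts it gave 2688, 3650.4 and 3184, also above all hearts before AAC (0.35 ± 0.13, adjusted p = 0.103) and overlapping the 4-week hearts (-0.25 ± 0.13, 0.374). The call at 4 weeks was lost without any 1 of the 6 hearts compared (adjusted p = 0.0676 to 0.111). It was also lost without a variance trend (0.0563), with the replicate number as a block (0.0551) and with 4-week replicates 1 and 3 averaged (0.0617). With the β-actin ratio as a covariate the change was 0.48 and did not pass (0.754). With Akt-on replicate 1 left out, the change in Akt-on hearts against those before AAC passed (0.46, adjusted p = 0.0316). Probe set 1415929_at gave 2487, 3513 and 3475 in Akt-on hearts, 4258, 3762 and 3999 in 4-week hearts and 3325, 3256 and 3184 before AAC, with the 4-week hearts above both other groups and no call (-0.36 ± 0.14, adjusted p = 0.214, between Akt-on and 4-week hearts). Probe set 1415928_a_at gave 1709, 2007 and 1950.5 in Akt-on hearts, 2413, 2044 and 2447 in 4-week hearts and 1989, 2479.8 and 2963 before AAC, and its change at 4 weeks was -0.09 (95% interval -0.43 to 0.24), which leaves out the 0.60 of 1415930_a_at. The fourth, 1428024_at, had 4.5 to 16.9 signal units and was below the filter.

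**Figure D3:**
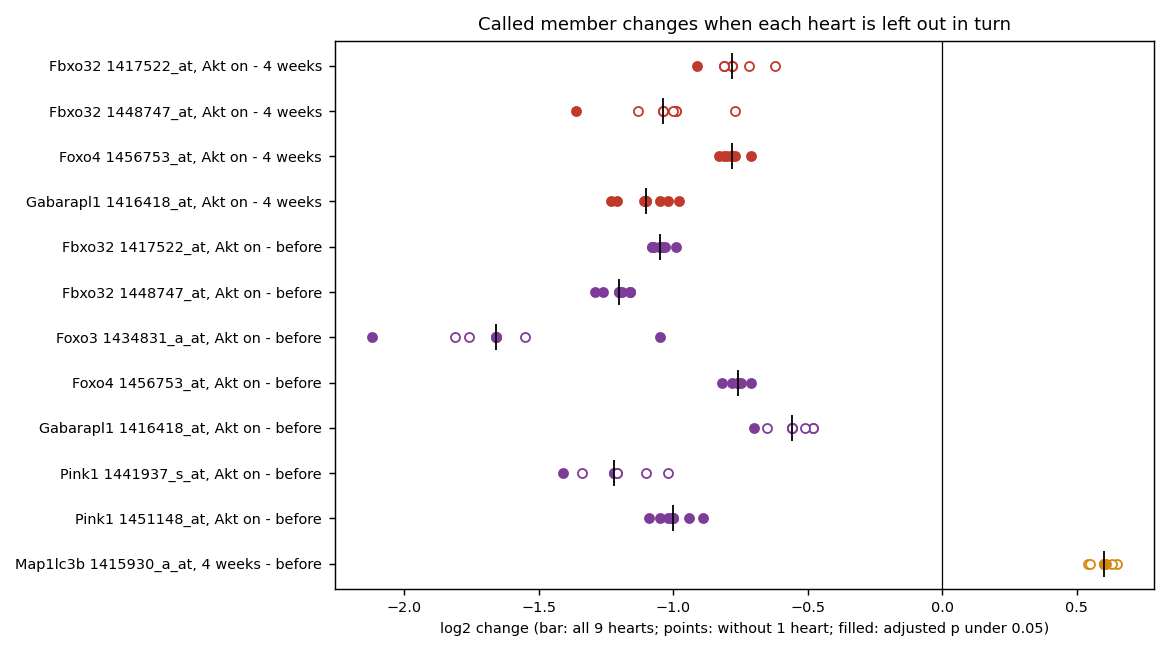
Log2 changes of the 12 called member changes with all 9 hearts (bars) and with each heart left out in turn (points; filled where the adjusted p was under 0.05). Points for Foxo4 and Gabarapl1 between Akt-on and 4-week hearts are all filled, as are those for Foxo4, Pink1 1451148_at and both chip 430A probe sets of Fbxo32 between Akt-on hearts and those before AAC.

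The falls with Akt on stood beside the rise of fibroblast markers. With the fibroblast marker score of each heart as a covariate, an alternative added after seeing the data, the changes between Akt-on and 4-week hearts were -0.94 for Foxo4 (adjusted p = 0.273), -1.07 for Gabarapl1 1416418_at (0.37), -0.66 for Fbxo32 1417522_at (0.601) and -0.97 for Fbxo32 1448747_at (0.609). No member passed, and 8 probe sets of all 27083 did. The score was higher in every Akt-on heart (10.79 to 11.44) than at 4 weeks (9.85 to 10.68) or before AAC (10.27 to 10.42). This fit therefore cannot tell the score apart from the group. Against the hearts before AAC 0 members passed under this covariate, with 65 calls over all probe sets. With the log2 β-actin 3' to 5' ratio as a covariate, also added after seeing the data, Foxo4 (-0.79, adjusted p = 0.0189) and Gabarapl1 1416418_at (-1.15, 0.0104) still fell between Akt-on and 4-week hearts, and Fbxo32 1417522_at (0.0535) and 1448747_at (0.0772) did not pass. Against hearts before AAC, whose ratios stand apart, no probe set of the 27083 passed with Akt on under that covariate, and the changes were -0.94 for Fbxo32 1417522_at, -0.80 for Pink1 1451148_at and -0.82 for Foxo4. Between 4-week hearts and those before AAC, 2 probe sets of the 27083 passed under it, and 0 members. What part endothelial, skeletal muscle or brown adipocyte markers had in these changes was not tested.

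Genes around the members were described by 5 lists, each given by its called probe sets and the share of the list that they made. The counts against hearts before AAC are from the fit without the β-actin covariate. With it, 0 probe sets of all 27083 passed with Akt on and 2 at 4 weeks. The ratio moves with these groups, so that fit cannot tell the ratio apart from the group. Of all probe sets, 1.08% rose and 1.46% fell between Akt-on and 4-week hearts. Between Akt-on hearts and those before AAC 6.86% rose and 6.51% fell, and between 4-week hearts and those before AAC 2.75% and 1.68%. The FoxO regulators (kinases, acetylases, deacetylases and 14-3-3 proteins, 86 probe sets of 29 genes) had 1 rise (1.16%) and 3 falls (3.49%) between Akt-on and 4-week hearts, a median change of -0.02. The rise was the Akt1 probe set above. The falls were Akt2, the second Akt kinase (-0.76 ± 0.13, adjusted p = 0.0118), Sgk1, a related kinase that also phosphorylates FoxO (-0.92 ± 0.21, adjusted p = 0.0413), and Prkaa2, a catalytic subunit of AMP-activated kinase (-0.59 ± 0.14, adjusted p = 0.0447). Akt2 and Prkaa2 were each called on 1 of 3 probe sets, the others reaching -0.46 and -0.26. Against hearts before AAC 7 rose (8.14%) and 5 fell (5.81%) with Akt on, near the shares of all probe sets. Among the rises was the Akt1 probe set of the transgene check (2.89 ± 0.31, adjusted p = 0.000433). Others called were the deacetylase Sirt2 (0.95 ± 0.16, adjusted p = 0.00357), the acetylase Kat2b (1.92 ± 0.37, adjusted p = 0.00674) and again Akt2 (-0.79 ± 0.13, adjusted p = 0.0034). For Kat2b 1 of 3 probe sets was called and the others reached -0.26, and for Akt2 2 of 3 were called and the other changed by 0.21. Between 4-week hearts and those before AAC 6 rose (6.98%) and 2 fell (2.33%). Sirt2 rose (0.96 ± 0.16, adjusted p = 0.0126). Kat2b rose on 1 of 3 probe sets (1.87 ± 0.37, adjusted p = 0.0219, the others down to -0.23), and Prkaa2 on 1 of 3 (0.64 ± 0.14, adjusted p = 0.0274, the others down to 0.06). The 14-3-3 protein Ywhab fell on 1 of its 6 probe sets (-0.96 ± 0.16, adjusted p = 0.0142), the others reaching 0.54.

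Genes known as FoxO targets (61 probe sets of 28 genes) had both rises and falls in each comparison. Between Akt-on and 4-week hearts 4 probe sets rose (6.56%) and 5 fell (8.2%), with a median of -0.06. Sesn3, a stress-induced regulator of mTORC1, rose on both probe sets (1.62 ± 0.20, adjusted p = 0.00229, and 1.10 ± 0.18, adjusted p = 0.0103). Ppargc1a, the coactivator of mitochondrial biogenesis, fell (-1.61 ± 0.21, adjusted p = 0.00353, 3 of its 5 probe sets called), as did the transcription factor Klf15 (-1.37 ± 0.25, adjusted p = 0.0148). Against hearts before AAC 5 rose (8.2%, where 6.86% of all probe sets did) and 12 fell (19.7%, where 6.51% did), a median of -0.17. The cell cycle inhibitor Cdkn1a rose on both probe sets (3.15 ± 0.34, adjusted p = 0.000528, and 1.99 ± 0.25, adjusted p = 0.00123), Sesn3 rose (1.56 ± 0.20, adjusted p = 0.00123) and Ppargc1a fell on 3 of 5 probe sets (for example -1.36 ± 0.21, adjusted p = 0.00246). At 4 weeks against before AAC 2 rose (3.28%) and 1 fell (1.64%). Cdkn1a rose on 1 of 2 probe sets (1.76 ± 0.34, adjusted p = 0.0209, the other 0.68), and catalase, Cat, on 1 of 2 (0.82 ± 0.16, adjusted p = 0.0237, the other 0.21). The BH3 protein Bcl2l11 fell on 1 of 3 probe sets (-1.06 ± 0.19, adjusted p = 0.0157).

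Other ubiquitin ligases and deubiquitinases of muscle (71 probe sets of 25 genes) had 0 rises and 6 falls (8.45%) between Akt-on and 4-week hearts, in 6 genes, with a median of -0.09. Trim54, the MuRF3 relative of Trim63, fell (-0.56 ± 0.11, adjusted p = 0.0209), as did 1 of 2 probe sets of the F-box protein Fbxo31 (-0.66 ± 0.13, adjusted p = 0.0217, the other -0.20), the cullin adaptor Asb11 (-0.85 ± 0.17, adjusted p = 0.0258) and 1 of 6 probe sets of Zfand5, a zinc finger protein of the proteasome pathway (-0.51 ± 0.11, adjusted p = 0.0342). Against hearts before AAC 13 rose (18.3%) and 6 fell (8.45%) with Akt on, with Stub1, the chaperone-linked ligase CHIP, falling on both probe sets (-1.56 ± 0.20, adjusted p = 0.00131, and -0.67 ± 0.11, adjusted p = 0.00269), Asb11 falling (-1.06 ± 0.17, adjusted p = 0.00308) and the conjugating enzyme Ube2d3 rising on 2 of 7 probe sets (for example 1.09 ± 0.17, adjusted p = 0.0028, the others down to -0.05). At 4 weeks against before AAC 12 rose (16.9%) and 0 fell, with a median of 0.15. Ube2d3 (1.29 ± 0.17, adjusted p = 0.00573, and 0.90 ± 0.19, adjusted p = 0.0258, 2 of 7 probe sets called), Zfand5 (1.35 ± 0.23, adjusted p = 0.0147, 3 of 6 called) and the proteasome deubiquitinase Usp14 (1.22 ± 0.25, adjusted p = 0.0243, 1 of 4 called) were among them. Usp14's probe sets disagreed, reaching -0.44.

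The autophagy machinery (98 probe sets of 49 genes) had 0 rises and 2 falls (2.04%) between Akt-on and 4-week hearts, a median of -0.01: Rb1cc1, a scaffold of the ULK initiation complex (-0.84 ± 0.16, adjusted p = 0.0215), and Mitf, a lysosomal gene regulator (-0.70 ± 0.15, adjusted p = 0.0331). Against hearts before AAC 13 rose (13.3%) and 2 fell (2.04%), with Becn1, of the lipid kinase complex (0.90 ± 0.16, adjusted p = 0.00441), the lysosomal protease Ctsb (0.76 ± 0.15, adjusted p = 0.00665) and Vmp1 (1.01 ± 0.20, adjusted p = 0.00704) higher with Akt on. For Ctsb 1 of 5 probe sets was called, the others down to -0.02, and for Vmp1 1 of 2, the other changing by 0.30. The LC3-processing protease Atg4a rose on 1 of 2 probe sets (1.09 ± 0.21, adjusted p = 0.00598), and the other changed by -0.28. Of the 5 Becn1 probe sets 2 were called, and others reached -0.25. At 4 weeks 9 rose (9.18%) and 1 fell (1.02%), with the lysosomal membrane protein Lamp2 (1.06 ± 0.18, adjusted p = 0.0147) and Becn1 (0.78 ± 0.16, adjusted p = 0.0227, and 0.72 ± 0.16, adjusted p = 0.0276) higher and the conjugation enzyme Atg7 lower (-0.90 ± 0.16, adjusted p = 0.015). For Lamp2 1 of 4 probe sets was called, the others down to -0.00, and for Atg7 1 of 2, the other changing by -0.01. Other Becn1 probe sets reached -0.66 at 4 weeks. The list of mitophagy and mitochondrial dynamics (72 probe sets of 31 genes) had no call between Akt-on and 4-week hearts, with a median of -0.05. Against hearts before AAC 10 rose (13.9%) and 3 fell (4.17%) with Akt on. The deubiquitinase Usp8 rose on 1 of 2 probe sets (0.71 ± 0.13, adjusted p = 0.0057, the other -0.06), and the outer membrane ligase Marchf5 on 1 of 4 (0.98 ± 0.20, adjusted p = 0.00801, the others reaching -0.13). The fusion protein Mfn2 fell on 1 of 2 (-0.85 ± 0.16, adjusted p = 0.00707, the other -0.32), and prohibitin Phb2 on 1 of 4 (-0.56 ± 0.12, adjusted p = 0.0112, the others reaching -0.21). At 4 weeks 8 rose (11.1%) and 2 fell (2.78%), with the import receptor Tomm20 rising on 4 of 6 probe sets (for example 0.94 ± 0.14, adjusted p = 0.00981, and 0.88 ± 0.17, adjusted p = 0.0186), Marchf5 rising on 1 of 4 (0.96 ± 0.20, adjusted p = 0.025, the others reaching -0.58) and the channel Vdac1 falling on 1 of 4 (-0.43 ± 0.09, adjusted p = 0.0267, the others reaching 0.48).

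**Figure D4:**
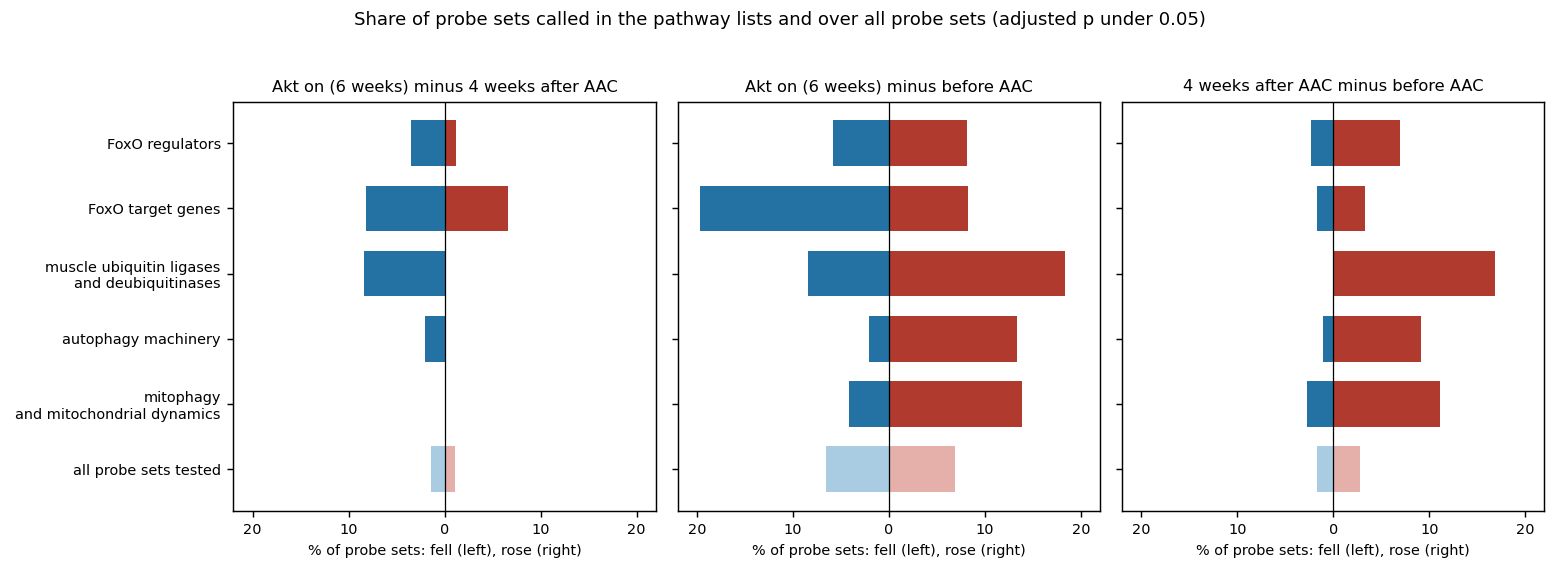
Share of probe sets that rose (right of 0) and fell (left of 0) in the 5 pathway lists and, in pale bars, among all 27083 probe sets, for Akt-on against 4-week hearts (left), Akt-on hearts against those before AAC (middle) and 4-week hearts against those before AAC (right). In the left panel the ligase list has 8.45% falls and 0% rises and the FoxO target list 8.2% falls and 6.56% rises, against 1.46% and 1.08% of all probe sets.

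Over the 9 hearts, the genes whose log2 signal ran most like that of Fbxo32 1417522_at, out of 12480 probe sets of chip 430A with 1 symbol that passed the filter, were Snrk (r = 0.981), Sesn1 (0.981) and Gstk1 (0.973). Those most like Gabarapl1 1416418_at were Phldb2 (0.987), Arfgap2 (0.953) and Zbtb14 (0.945). Those most like Foxo4 1456753_at, out of 9354 probe sets of chip 430B, were Ldhd (0.961), Rimkla (0.961) and Pfkfb2 (0.958). These values describe 9 hearts in 3 groups, share each array, and were picked as the highest of many.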

How the data were processed

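Heart RNA of 9 samples was hybridised to Affymetrix chips 430A and 430B (18 arrays). Per the labels, RNA was isolated with Ultraspec-II and labelled with biotin; per the submitters' processing notes, MAS5 was used, with its version and target not given in the sources used here. The deposited values are linear MAS5 signal intensities, 1 for each probe set, which the authors had scaled per array. Arrays of a chip were set to their average trimmed mean (2% off each end), and log2(signal + 32) was taken. Chip 430B has a lower scale than 430A, so the pseudocount of 32 weighs more there.

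Of 45265 probe sets, 128 controls were left out. The 60% of each chip with the highest mean signal, 27083 probe sets, were tested in R 4.3.3 with limma 3.58.1 (lmFit; eBayes with a variance trend) for 3 two-sided contrasts of the 3 group means, each chip fitted separately, with Benjamini-Hochberg adjustment over both chips. A fold change on this scale understates that of dim probe sets. Gene names came from the platform annotation; 936 probe sets with several symbols and 9160 with none are not named. The fit was tested on simulated data. The 3 arrays a group limit the precision, and p-values measure only the spread between these samples, which may be technical.

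The members and lists were chosen with earlier results of these data known. The text names every member probe set, up to 4 called probe sets with the smallest p from each list and comparison, and, for 3 members, the 3 genes most like them. Alternatives were other scalings, pseudocounts, filters, variance models, groups in the fit, adjustments, covariates, and each heart left out. Replicate numbers did not pair the hearts: of 18 correlations between same-numbered hearts of different groups (-0.24 to 0.14), 1 was over 0.1. Promoter windows are from RefSeq (GRCm38.p6); windows of Fbxo32, Foxo4 and Bnip3l were not analysed here.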

Additional observations from a re-analysis of the deposited data

How the results depend on the processing

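No called member change reversed under the 24 or 25 alternatives tried for each. Of the 54 member changes, 21 took the other sign under at least 1 alternative, and none of those was called in either fit. With each heart left out in turn, calls over all probe sets were 239 to 642 for Akt on against 4 weeks (688 with all hearts), 1696 to 4083 for Akt on against before AAC (3623) and 118 to 1799 for 4 weeks against before AAC (1199), and member calls were 2 to 4 (4), 4 to 10 (7) and 0 to 2 (1).

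With 1 probe set per gene, 12835 probe sets were tested, 9 of them members. Without a filter, 45137 were tested, 22 of them members. Counts under these 2 settings are therefore out of other totals than the 27083 and 18 of the main fit. For Akt on against 4 weeks, the count over all probe sets was 445 without a filter, 438 without a variance trend, 262 with only the 2 groups compared, and 370 with 4-week replicates 1 and 3 averaged. Members called were 2 with 1 probe set per gene, with only the 2 groups and with the averaged replicates. For Akt on against before AAC, 1885 genes were called with 1 probe set per gene, and 4 members were called both there and without a filter. For 4 weeks against before AAC, 612 probe sets were called without a filter, 586 with 1 probe set per gene, 748 without a variance trend and 498 with the averaged replicates, with 0 members under the last 3; 2 members were called with only the 2 groups and with adjustment within each chip, Bnip3 being the added one (adjusted p = 0.0173 and 0.0478).

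With the replicate number as a block (replicate block), Akt on against 4 weeks gave 431 calls and 2 members (Foxo4 and Gabarapl1), and 4 weeks against before AAC gave 560 calls and 0 members. With the β-actin ratio as covariate, the calls were 406 with 2 members for Akt on against 4 weeks, 0 with 0 members for Akt on against before AAC, and 2 with 0 members for 4 weeks against before AAC. With the fibroblast score they were 8 and 65 in both Akt-on comparisons, with 0 members in each. Both covariates were added after seeing the data, and both move with the groups. Quantile scaling, both other pseudocounts, the stricter filter, the common chip scale, the robust variance and the atrial score kept each of these counts within 1.5 times, though single calls were lost: Foxo3 1434831_a_at against before AAC with the robust variance (adjusted p = 0.0669), Gabarapl1 1416418_at against before AAC with the higher pseudocount (0.0516) and the atrial score (0.0511), and Fbxo32 1448747_at against 4 weeks with the atrial score (0.052). Without a filter, Foxo3 1434831_a_at (0.0555), Gabarapl1 1416418_at (0.0751) and Pink1 1441937_s_at (0.0729) were lost against before AAC, and Fbxo32 1448747_at (0.0784) against 4 weeks. Calls were also gained. Against 4 weeks, Pink1 1451148_at passed with the atrial score (-0.59, adjusted p = 0.046). Gabarapl1 1416419_s_at passed there with the atrial score (0.0471) and with adjustment within each chip (0.0465). Against before AAC it passed with only the 2 groups (0.024), with the averaged replicates (0.0262) and without 4-week replicate 1 (0.0169). The cause of these differences was not tested, and groups of 3 hearts limit what could be called.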
